A study of Mus musculus with 16 samples.

Results

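Goblet cells of the distal colon were compared with goblet cells of the small intestine, using 8 of the 16 bulk RNA libraries of the study, 4 from each region. The members were chosen by their labels: the sorted goblet libraries of the distal colon (DC) and those of section 8 of the small intestine (Si8), called colonic and small intestinal below. All animals were RedMUC298trTg mice of 6 to 8 weeks. In this line a transgenic MUC2 mucin carries the red protein mCherry, so the sorted goblet cells are those in which the reporter glowed, and a C57Bl6 mouse without it served to set the gate. Per the labels' protocols, live epithelial cells came from tissue stripped with EDTA and digested with collagenase and DNase. The other 8 libraries are the mCherry-negative epithelial cells of the same regions, called other cells, and were used to ask whether a difference between regions was larger or smaller in goblet cells. The labels do not tie libraries to animals, so p-values measure only the spread between these libraries, which may be technical.

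Goblet cells make the mucus gel that covers the intestinal wall. Its main protein, the mucin Muc2, is folded and joined through disulphide bonds in the endoplasmic reticulum (ER), coated with O-linked sugars in the Golgi, packed into granules and released at the cell surface. In the colon the gel forms an attached inner layer that keeps bacteria off the epithelium, whereas in the small intestine it is looser and works together with antimicrobial proteins that Paneth cells release at the crypt base.

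Each table listed 46882 genes, and 15962 with enough counts were tested after the mitochondrially encoded genes had been left out. Colonic goblet libraries held 11.9 to 18.5 M counts and small intestinal ones 37.4 to 40.5 M. Levels are CPM, counts relative to library totals scaled by edgeR's TMM factors. Per-library values are given in the order of libraries 9, 11, 13 and 18 for the colon and 2, 4, 6 and 8 for the small intestine. Differences are log2 values, colon minus small intestine, ± SE, with p adjusted by Benjamini-Hochberg over all tested genes, from the quasi-likelihood test of edgeR. A gene was called at an adjusted p under 0.05. The goblet marker Muc2 averaged 10144 CPM in colonic goblet cells against 41.4 in colonic other cells, and 40982 against 55.4 in the small intestine. Atoh1, the factor that commits cells to the secretory lineage, stood at 313 and 188 CPM in the goblet groups and at 1.93 and 3.41 in the other cells.

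The regions differed widely. Of the 15962 genes, 4606 (28.9%) were called higher and 5324 (33.4%) lower in colonic goblet cells, and 1917 and 2148 of these differed by at least 1 on the log2 scale. The median log2 difference of all tested genes was -0.05. The libraries of the goblet groups did not overlap, in either direction, for 9207 genes (57.7%). These shares are the background for every list below. Each region has its own count table, so region cannot be told apart from table processing or depth: mitochondrially encoded genes had 0 counts in all colonic libraries and took 3.19% to 4.07% of the counts in small intestinal goblet libraries, while nuclear copies of mitochondrial sequence took 2.57% to 2.80% and about 0.0005%. Small intestinal library 6 stood apart from the other 3 of its group, with 27.2% of its counts on its 10 most abundant genes against 16.4% to 23.0%, and with the lowest TMM factor, 0.784. The mucus list and its 5 main genes are therefore given with and without it. In bulk libraries, fewer cells of a type and less RNA per cell cannot be told apart.

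The main mucus proteins were lower in colonic goblet cells. Of 12 tested mucus components, 7 were lower, 2 higher and 3 not called, with a median log2 difference of -1.53 (the same counts and -1.31 without library 6). Muc2 stood at 10182, 10123, 9398 and 10872 CPM in the colonic libraries and at 24760.0, 29764, 65967 and 43438 CPM in the small intestinal ones. Every small intestinal library lay above every colonic one, and library 6 was the highest. The difference was -2.01 ± 0.32 (adjusted p = 4.4e-05), and -1.64 without library 6. Fcgbp, a mucus protein named for binding the Fc part of IgG, had 16026, 13935, 15303 and 14299 CPM against 69668, 77762, 169708 and 115458 CPM, a difference of -2.86 ± 0.27 (-2.51 without library 6). Together, Muc2, Fcgbp, the metalloprotease Clca1 and the lectin Zg16 took 3.84% to 4.34% of the counts in colonic goblet libraries and 11.9%, 12.6%, 22.2% and 17.5% in small intestinal ones. In other cells of both regions the same 4 genes took at most 0.0568%.

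The size of the difference varied between mucus genes. Clca1, which cleaves Muc2, differed by -1.60 ± 0.29 (-1.31 without library 6), and Zg16, which binds Gram-positive bacteria, by -1.47 ± 0.28 (-1.18). Tff3, the trefoil peptide of goblet granules, fell further, from 6067, 6382, 12125 and 7668 CPM in the small intestine to 1249, 1014, 1389 and 1281 CPM in the colon, by -2.71 ± 0.23 (-2.40). Itln1, an intelectin that binds microbial sugars, was at 3.65, 2.53, 2.69 and 1.87 CPM in the colon against 2190.0 to 5113 CPM, a difference of -10.31 ± 0.45. Dmbt1, a scavenger receptor protein of mucus, differed by -2.29 ± 0.26. Agr2, the disulphide isomerase that mucin folding needs, was not called: 4343, 4122, 4727 and 4380 CPM against 4861, 3947, 5210.1 and 4345 CPM, a difference of -0.06 ± 0.26 whose groups overlapped. The antibacterial protein Retnlb (-0.30 ± 0.28) was not called either. Klk1, a kallikrein protease, went the other way with 2021, 1929, 2244 and 2018 CPM against 402, 393, 549.5 and 457 CPM, a difference of 2.19 ± 0.15. Tgm3, a transglutaminase that cross-links proteins, had 58.5 to 97.3 CPM in the colon and 4 counts in all small intestinal goblet libraries together (11.15 ± 0.29).

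**Figure D1:**
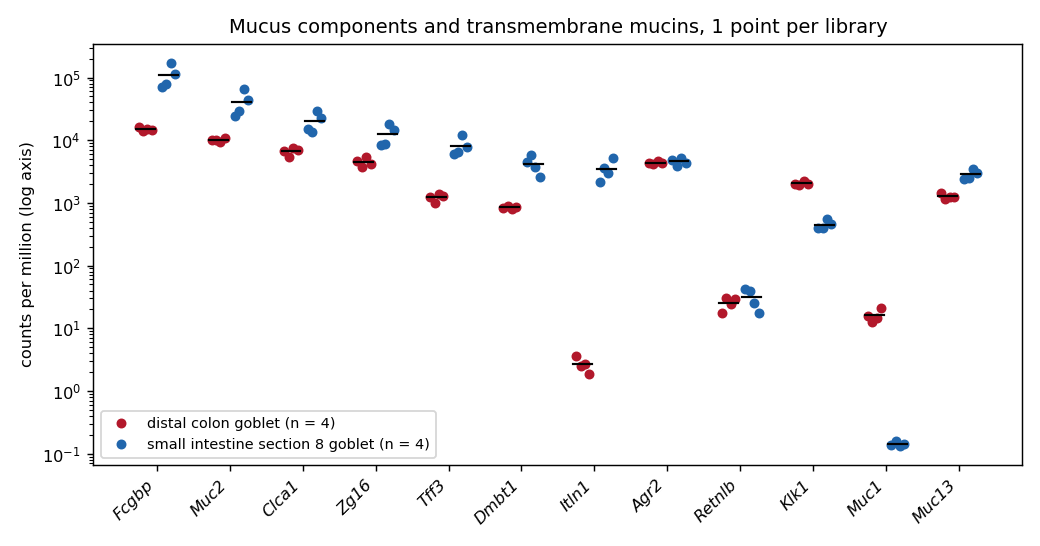
Level of 12 mucus genes and transmembrane mucins in each of the 8 goblet libraries, in CPM on a log axis, 1 point per library, with a bar at the mean of the 4. Muc2, Fcgbp, Clca1, Zg16 and Tff3 are lower in all 4 colonic libraries, Agr2 and Retnlb overlap, and Klk1 and Muc1 are higher in all 4.

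Membrane-bound mucins did not move as a block. Muc1, a signalling mucin, had 15.7, 12.7, 14.7 and 21.3 CPM in colonic goblet cells and 0.134 to 0.159 CPM in small intestinal ones (6.75 ± 0.22). The other 4 of 5 tested were lower in the colon, with Muc13 at -1.16 ± 0.12, Muc3 at -0.89 ± 0.16, Muc3a at -3.74 ± 0.23 and Muc4 at -0.66 ± 0.22. The Muc4 call was lost without library 6 (-0.34). Muc3 and Muc3a are similar in sequence, and counting may have split their reads.

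Transcription factors of the secretory lineage differed by small amounts in the main. Of 16 secretory transcription factors, 8 were higher in the colon, 3 lower and 5 not called (median 0.30). Atoh1 had 307, 309, 274 and 362 CPM in the colon against 180, 156, 238 and 178.5 CPM, a difference of 0.73 ± 0.16. Foxa2 (1.74 ± 0.14) and the Notch-pathway gene Hes6 (1.10 ± 0.08) were also higher. Spdef, needed for goblet maturation, was not called (0.32 ± 0.20, adjusted p = 0.168), and neither were Klf4 (0.05 ± 0.18) and Foxa3 (0.00 ± 0.13). Bhlha15, a factor of secretory cell architecture, was lower at 7.68, 7.53, 8.77 and 6.42 CPM against 19.6 to 26.6 CPM (-1.57 ± 0.12).

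Enzymes that build mucin sugars differed in both directions. Of 26 enzymes that start and extend O-glycans, 15 were higher in the colon, 8 lower and 3 not called (median 0.37). B3gnt6, the core 3 synthase, had 43.0, 51.5, 46.9 and 55.3 CPM in the colon and 0.987, 0.584, 1.21 and 0.951 CPM in the small intestine, a difference of 5.73 ± 0.17 (adjusted p = 4.9e-16). In other cells it differed the opposite way, by -1.95 ± 0.20, and the goblet difference exceeded that in other cells by 7.68 ± 0.25 (adjusted p = 5.9e-14). Gcnt1, a core 2 branching enzyme, was higher at 172 to 229.6 CPM against 7.85 to 17.6 CPM (3.96 ± 0.19), whereas its relative Gcnt4 was lower at 1.92 to 2.65 CPM against 45.8 to 51.1 CPM (-4.33 ± 0.12). The galactosyltransferase B3galt5 stood at 964, 914, 894.5 and 985 CPM against 27.0, 43.6, 39.9 and 9.60 CPM (4.97 ± 0.52). The I-branching enzyme Gcnt2 was lower by -5.34 ± 0.19. Abo, which makes the sugars of blood groups A and B, had 35.1 to 39.3 CPM in the colon and 0 counts in all small intestinal goblet libraries. Against a floor of 3 counts over the group of 4, it was at least 1728-fold higher.

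Sialic acid and fucose enzymes were mostly higher in colonic goblet cells: 19 of 26 were higher, 3 lower and 4 not called, with a median of 1.76. In other cells, where 33.8% of all genes were called higher and 33.0% lower, 16 were higher and 4 lower (median 1.00). The goblet difference minus that in other cells was called above 0 for 7 and below 0 for 9. Among all genes, 14.1% were called above 0 and 18.2% below. Sialic acid is a charged sugar that ends many mucin glycans. Gne, which starts its synthesis, was higher in colonic goblet cells at 1028 to 1169 CPM against 135 to 164 CPM (2.83 ± 0.10). Cmah, which turns sialic acid Neu5Ac into Neu5Gc, had 224.5, 160, 197 and 223 CPM in the colon and 0.0548, 0.0531, 0.101 and 0.202 CPM in the small intestine (10.89 ± 0.24, adjusted p = 1.1e-17). St6galnac6, a sialyltransferase, reached 1120, 1258, 1260 and 1177 CPM against 9.23 to 18.3 CPM (6.34 ± 0.18). St6gal1, which adds sialic acid to terminal galactose, had 468, 383, 534 and 444 CPM against 12.5, 12.6, 12.4 and 14.6 CPM (5.13 ± 0.12). In all 4 genes the groups lay far apart. In other cells St6gal1 was at 2.52 and 2.82 CPM and not called (-0.16 ± 0.16), and the goblet difference was larger by 5.30 ± 0.19 (adjusted p = 1.3e-13). St3gal1 was lower in colonic goblet cells, at 0.773 to 1.12 CPM against 21.9 to 34.3 CPM (-4.87 ± 0.53), and St3gal4 as well (-2.55 ± 0.12); both place sialic acid on galactose by another linkage.

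Fucosyltransferases and sulfation enzymes followed. Fut9, which adds fucose to make Lewis antigens, had 53.8 to 56.7 CPM in the colon and 3 counts in all small intestinal goblet libraries, found in libraries 2 and 8. The ratio was 2560-fold, with a 95% counting interval of 875 to 12419. Fut2, the secretor enzyme, was at 281, 260.0, 295 and 260 CPM against 86.1, 106, 73.8 and 25.7 CPM (1.91 ± 0.34). Of 16 sulfation enzymes and sulfate suppliers, 7 were higher, 3 lower and 6 not called (median 0.26). Papss2, which makes the sulfate donor, was higher by 1.35 ± 0.13 and the sulfotransferase Chst15 by 2.60 ± 0.16. Gal3st2, which sulfates galactose, was higher by only 0.55 ± 0.15 in goblet cells, with 38.9 to 59.4 CPM against 25.5 to 42.9 CPM and overlapping groups. In other cells it was at 0.394 CPM in the colon and 93.9 CPM in the small intestine (-7.87 ± 0.25). Gal3st2 has near copies, and counting may have split their reads.

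**Figure D2:**
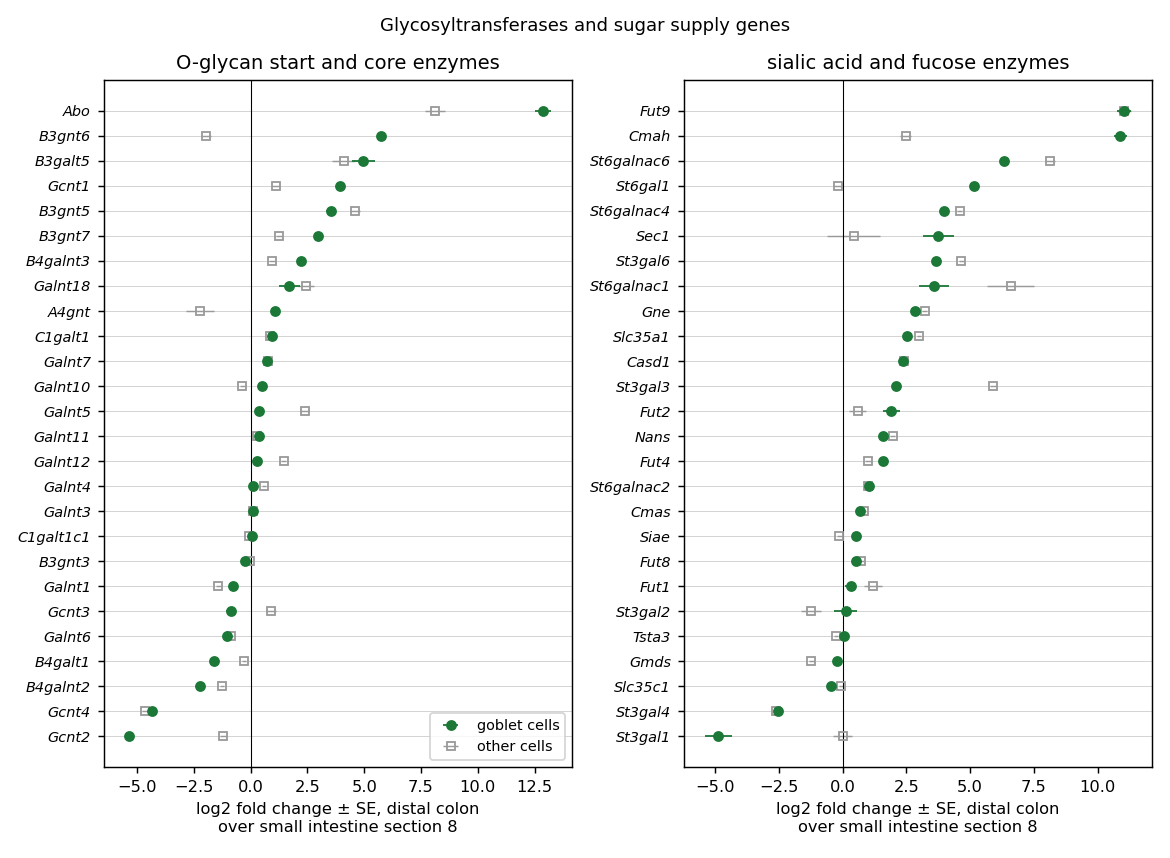
Log2 difference between colon and small intestine for glycan enzymes in goblet cells (filled green circles) and in other cells (open grey squares), with SE bars. B3gnt6 and St6gal1 are far above 0 in goblet cells and at or below 0 in other cells, whereas Gcnt4 and St3gal4 lie below 0 in both; the values of Abo and Fut9, at 0 and 3 counts in small intestinal goblet cells, depend on the prior count.

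Genes of protein folding and transport were lower in the colon more often than higher, by small amounts. Of 37 genes of ER folding and stress, 20 were lower, 6 higher and 11 not called (median -0.25), and the number called lower ran from 15 to 23 over the alternative settings. The calcium-binding chaperone Calr had 1140, 970, 1085 and 827 CPM against 1628, 1487, 1703 and 1696 CPM, a difference of -0.70 ± 0.12. Hspa5, the central ER chaperone, was not called (-0.19 ± 0.13). Herpud1, part of ER-associated degradation, was higher (0.81 ± 0.13). Of 35 genes of ER to Golgi transport, 18 were lower, 7 higher and 10 not called (median -0.19). Tmed6 was the member that differed most among those of at least 5 CPM, at 0.884 to 1.16 CPM against 8.58 to 19.6 CPM (-3.75 ± 0.26). In other cells 28 of 37 and 26 of 35 members were lower in the colon, where 33.0% of all genes were called lower and 33.8% higher. The region difference in goblet cells minus that in other cells was called above 0 for 20 folding genes and below 0 for 2. For transport genes it was above 0 for 20 and below 0 for 4. Among all genes, 14.1% were called above 0 and 18.2% below.

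Of 31 genes of granule exocytosis, 19 were lower, 7 higher and 5 not called (median -0.40). In other cells, where 33.8% of all genes were called higher and 33.0% lower, 15 were higher and 10 lower (median 0.30). The synaptotagmin-like Sytl5, which binds the granule protein Rab27, had 5.14 to 5.91 CPM in colonic goblet cells. In small intestinal goblet cells it had 44.0, 43.0, 90.1 and 73.1 CPM (-3.55 ± 0.23). Myrip, another Rab27 partner, was lower by -2.29 ± 0.17 and the ferlin Fer1l6 by -1.41 ± 0.24. Exph5, also a Rab27 effector, was higher at 156 to 206 CPM against 69.0 to 82.2 CPM (1.28 ± 0.11).

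Ion and fluid transport differed gene by gene. Of 35 genes, 14 were higher in colonic goblet cells, 16 lower and 5 not called, and the median (-0.13) changed sign over the alternative settings (-0.19 to 0.12). Best2, an anion channel that passes bicarbonate, had 207, 194.5, 278 and 178 CPM in the colon and 8 counts in all small intestinal libraries (11.74 ± 0.24). Car2, a carbonic anhydrase, had 373.5, 364, 365 and 390.2 CPM against 0.219 to 0.302 CPM (10.39 ± 0.13). Atp12a, a proton pump that takes up potassium, had 309, 201, 293 and 301 CPM against 4 counts (12.99 ± 0.27), with colonic library 11 the lowest. All 3 genes were abundant in every colonic library and at most at 0.302 CPM in the small intestinal ones. Scnn1b, a subunit of the sodium channel ENaC, had 26.5 to 40.6 CPM against 2 counts, a ratio of 2332 with a 95% counting interval of 645 to 19268. The chloride channel Ano1 was higher by 3.06 ± 0.13. Clca4b was lower at 1.12 to 2.29 CPM against 244 to 354 CPM (-7.32 ± 0.23). Guca2a, the hormone guanylin, was lower in colonic goblet cells at 209, 190, 233 and 218 CPM against 803 to 1047 CPM (-2.06 ± 0.11). It was higher in colonic other cells (2.56 ± 0.11), and the effects differed by -4.62 ± 0.15 (adjusted p = 5.9e-14). Cftr, the chloride channel of fluid secretion, was not called in goblet cells (-0.13 ± 0.11, adjusted p = 0.326).

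Antimicrobial proteins included some of the largest differences of the comparison. Of 27, 16 were lower in colonic goblet cells, 7 higher and 4 not called (median -2.24). Reg3b, a lectin that acts on bacteria, had 0.166, 0.982, 0.475 and 0.149 CPM in the colon and 8153, 9794, 8527 and 4431 CPM in the small intestine (-13.96 ± 0.49, and -14.75 without colonic library 11). Reg3g, its neighbour, differed by -13.59 ± 0.49. Nos2, which makes nitric oxide, was lower by -8.38 ± 0.37, and the hydrogen peroxide source Duox2 by -2.82 ± 0.15. The angiogenin Ang4, a bactericidal ribonuclease, had 17.2 to 22.5 CPM against 335 to 989 CPM (-4.98 ± 0.39). Higher genes included Wfdc2, a protease inhibitor with antibacterial activity, at 98.5 to 110 CPM against 0.570 to 1.04 CPM (6.99 ± 0.14). Lypd8, which binds flagella, was lower in colonic goblet cells (-1.40 ± 0.12) and higher in colonic other cells (1.59 ± 0.12). The region effects differed by -2.99 ± 0.17 (adjusted p = 1.1e-10). Reg3 genes are similar in sequence, and their reads may have been split.

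Markers of Paneth cells were present in the small intestinal goblet libraries. Of 22 tested markers, 19 were lower in the colon and 3 higher, and the median was -12.13, or -11.03 with the 10 genes at 0 set at their bound. The summed level was 3328 to 6547 CPM in colonic goblet cells, 15960.0 to 45358 in small intestinal goblet cells, 129 to 190.4 in colonic other cells and 944 to 2521 in small intestinal other cells. The alpha-defensin Defa24 had 0 counts in all colonic libraries and 4182, 7986, 5945 and 10687 CPM in the small intestinal goblet libraries, at least 172933-fold more against the floor of 3 counts. Defa3, Defa5, Defa17, Defa20, Defa21, Defa22, Defa26 and AY761184 were likewise at 0 in colonic goblet cells, and these near-identical genes may share reads. Lysozyme Lyz1 had 0.522 to 2.80 CPM in the colon and 5099, 10310.2, 7658 and 15858 CPM in the small intestinal goblet cells (-12.45 ± 0.59). Its mean in small intestinal other cells was 477.5 CPM, below all 4 goblet libraries. Defensins, Lyz1, Reg3b, Reg3g and Itln1 together took 2.89% to 4.48% of the counts of small intestinal goblet libraries. In small intestinal other cells the share was 1.81% to 3.30%, so these ranges overlapped. This share includes Reg3b and Reg3g, which are not on the Paneth list. The sums of the Paneth list itself did not overlap, and pooled Defa24 was at 7223 CPM in goblet and 340 CPM in other cells. The part of Paneth cells within the mCherry-positive gate in these values was not tested.

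In colonic goblet cells the summed Paneth list was mostly 1 gene. Mptx1, a mucosal pentraxin, had 4299, 2657, 5930 and 4161 CPM in the colon against 4.74, 2.31, 3.55 and 4.41 CPM (10.15 ± 0.38), and its relative Mptx2 showed the reverse, at 0.0935 to 0.552 CPM against 533 to 1879 CPM (-11.81 ± 0.76). The phospholipase Pla2g2f (1.49 ± 0.12) and the stress factor Nupr1 (1.84 ± 0.21) were the other higher members. Of 11 markers of deep crypt secretory cells, the colonic neighbours of stem cells, 6 were higher, 3 lower and 2 not called (median 0.74). Reg4, which marks them, had 1310, 1143, 1829 and 1211 CPM against 135, 67.6, 91.2 and 151.5 CPM (3.63 ± 0.32). The receptor kinase Kit was higher by 1.64 ± 0.11 and the growth factor Egf by 2.64 ± 0.14. Dll1, Ereg and Tgfa were lower, and Cd44 and Dll4 were not called. Mptx1 is on this list too and counts among its higher members. In other cells Reg4 was not called (-0.12 ± 0.32), and the goblet difference was larger by 3.74 ± 0.44 (adjusted p = 1.0e-05).

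Hox genes, which pattern the body axis, differed between the regions in both directions. All 28 tested posterior patterning factors were called, 18 higher and 10 lower in the colon. All 11 tested genes of the Hoxa cluster were higher, from 1.32 ± 0.29 for Hoxa4 to 9.89 ± 0.31 for Hoxa9 among those with more than 3 counts in both groups. Hoxb genes split: Hoxb13 was at 249, 277, 290 and 254 CPM in the colon and had 1 count in the small intestinal goblet libraries, in library 2, a ratio of 37285 with a 95% counting interval of 6691 to 1472750. Hoxb3 to Hoxb8 were all lower, by -4.48 to -5.55, and Hoxb9 by -0.47 ± 0.12. In the Hoxd cluster 4 of 5 were higher, and Hoxd4 was lower (-3.28 ± 0.55). Values in other cells had the same sign for each of these Hox genes, with Hoxb9 not called there (-0.28 ± 0.13). Cdx2, an intestinal master factor, was lower in colonic goblet cells at 60.8 to 69.1 CPM against 133 to 179 CPM (-1.30 ± 0.11). Genes of a Hox cluster lie close together and overlap antisense transcripts, and the strand setting of the counting is not given in the sources used here.

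**Figure D3:**
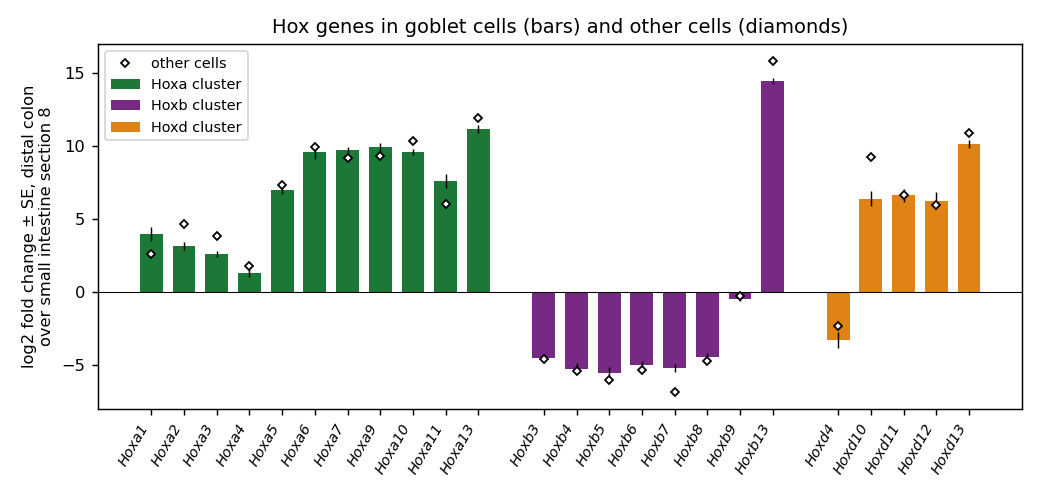
Log2 difference between colon and small intestine for each tested Hox gene, in cluster order; bars show goblet cells with SE and diamonds show other cells. Hoxa bars are all above 0, Hoxb3 to Hoxb9 are below 0 and Hoxb13 stands above 0; genes with 0 to 3 counts in small intestinal goblet cells (Hoxa6, Hoxa11, Hoxa13, Hoxb13 and Hoxd10 to Hoxd13) have values that depend on the prior count.

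Of 21 transcription factors of the small intestine, 15 were lower in colonic goblet cells, 2 higher and 4 not called (median -1.66). Tbx3, a T-box repressor, had 0.0746 to 0.234 CPM in the colon and 118, 105, 191 and 160.0 CPM in the small intestine (-9.71 ± 0.36). Gata5 had 0.0552 to 0.448 CPM against 62.6, 59.9, 80.7 and 78.5 CPM (-8.27 ± 0.25), Gata4 differed by -4.82 ± 0.68 and Gata6 by -0.53 ± 0.08. Isx, which limits vitamin A uptake, was lower by -4.35 ± 0.25, Maf by -6.07 ± 0.25, and Hnf4a, a driver of enterocyte genes, by -1.42 ± 0.09. The Gata5, Gata4 and Tbx3 differences were not called different from those of other cells, which had -7.98 ± 0.22, -4.30 ± 0.43 and -10.06 ± 0.34.

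Promoters of 5 genes are shown for the letters of 3 motifs linked to these factors: AGATAA, the core bound by Gata factors; CAAAGTCCA, an Hnf4 site; and CAGCTG, an E-box of the Atoh1 type. Each sequence runs 5′ to 3′ on the strand of the gene, from 250 bases before to 50 after the RefSeq start (build GRCm38.p6), with matches on either strand in capitals. No motif contains another. Muc2, Guca2a, Alpi and Reg4 were picked because they hold such letters, and Reg3b as a leading gene without them. They are Muc2 (chr7:141690090-141690389, plus strand), Guca2a (chr4:119637482-119637781, plus strand), Alpi, intestinal alkaline phosphatase (chr1:87101557-87101856, minus strand, with 0.264 to 0.821 CPM against 18.4 to 37.2 CPM, -5.55 ± 0.45), and Reg3b (chr6:78370635-78370934, plus strand), which were lower in the colon, and Reg4 (chr3:98221906-98222205, plus strand), which was higher.
Muc2: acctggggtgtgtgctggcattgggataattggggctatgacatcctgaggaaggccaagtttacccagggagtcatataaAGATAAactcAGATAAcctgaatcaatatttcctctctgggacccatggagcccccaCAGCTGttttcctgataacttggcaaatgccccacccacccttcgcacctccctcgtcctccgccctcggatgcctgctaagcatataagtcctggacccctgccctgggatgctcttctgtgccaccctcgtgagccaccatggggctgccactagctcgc
Guca2a: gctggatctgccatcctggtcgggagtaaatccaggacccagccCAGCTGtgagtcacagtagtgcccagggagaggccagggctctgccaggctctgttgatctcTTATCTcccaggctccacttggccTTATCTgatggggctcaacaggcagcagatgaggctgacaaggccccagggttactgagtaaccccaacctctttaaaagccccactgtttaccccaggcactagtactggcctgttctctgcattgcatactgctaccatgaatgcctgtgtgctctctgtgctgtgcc
Alpi: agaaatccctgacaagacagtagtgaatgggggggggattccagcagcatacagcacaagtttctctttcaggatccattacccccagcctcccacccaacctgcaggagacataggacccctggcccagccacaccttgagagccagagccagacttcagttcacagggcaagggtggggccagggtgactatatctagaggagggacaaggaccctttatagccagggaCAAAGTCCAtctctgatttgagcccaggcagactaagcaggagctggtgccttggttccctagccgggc
Reg3b: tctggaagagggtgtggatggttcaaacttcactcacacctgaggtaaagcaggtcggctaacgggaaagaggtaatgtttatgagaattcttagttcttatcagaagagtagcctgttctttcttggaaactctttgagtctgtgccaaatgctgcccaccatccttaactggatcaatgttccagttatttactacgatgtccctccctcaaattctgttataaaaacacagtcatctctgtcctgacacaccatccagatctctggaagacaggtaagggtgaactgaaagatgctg
Reg4: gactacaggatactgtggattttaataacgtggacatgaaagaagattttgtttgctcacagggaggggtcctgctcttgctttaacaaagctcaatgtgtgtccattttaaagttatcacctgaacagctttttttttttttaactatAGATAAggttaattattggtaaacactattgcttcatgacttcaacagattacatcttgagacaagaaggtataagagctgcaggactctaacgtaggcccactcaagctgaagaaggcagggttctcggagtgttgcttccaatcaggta
Muc2 and Guca2a each held the Gata letters at 2 places and the E-box at 1, Alpi held the Hnf4 site, Reg4 held the Gata letters at 1 place, and Reg3b held none. With the core CAATAAA, bound by posterior Hox and Cdx factors, as a further motif, 126 of the 203 promoters of leading genes and list members that differed by at least 2 on the log2 scale held no match, Itln1, Tgm3, Muc1, Klk1 and Scnn1b among them. Of 10696 tested genes with a promoter in use, 6.59% held AGATAA on either strand. The share was 13.62% among the 646 that were lower in colonic goblet cells by at least 2 on the log2 scale. It was 7.42% among the 593 higher by at least 2. For CAAAGTCCA the shares were 0.47%, 2.01% and 0.67%, and for CAGCTG 15.15%, 22.91% and 20.91%. CAATAAA was in 2.82%, 5.42% and 4.89%. A match is a description of letters and no evidence of binding.

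Absorptive genes differed between the regions in goblet cells too. Of 39 small intestinal absorptive genes, 35 were lower in the colon, 0 higher and 4 not called (median -4.51). Enpep, a brush border peptidase, had 0.0528 to 0.0935 CPM against 307, 288, 360.5 and 335 CPM (-12.08 ± 0.20). Fabp6, the ileal bile acid carrier, differed by -8.95 ± 0.27 and Mgam, a starch-digesting enzyme, by -2.36 ± 0.11. Levels in small intestinal other cells were higher, at 2434 CPM for Enpep and 5206 CPM for Fabp6. The summed list was 1165 to 1290 CPM in colonic goblet cells, 6061 to 8365 in small intestinal goblet cells and 38490 to 64001 in small intestinal other cells, and the part of absorptive cells in the goblet values was not tested. Of 30 colonic absorptive genes, 15 were higher, 10 lower and 5 not called (median 0.38). Their sum was lower in colonic goblet cells, at 2792 to 3382 CPM against 3926 to 6361 CPM. In other cells, where 33.8% of all genes were called higher, 22 were higher and 6 lower (median 3.28). The goblet difference minus that in other cells was called above 0 for 1 and below 0 for 23. Among all genes, 14.1% were called above 0 and 18.2% below. Car1, a carbonic anhydrase, had 42.9 to 65.4 CPM against 0.137 to 0.292 CPM (7.83 ± 0.20). Krt20, a keratin of mature surface cells, was lower at 61.9 to 70.7 CPM against 841 to 1731 CPM (-4.18 ± 0.21).

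Crypt genes were lower in part. Of 20 stem cell markers, 12 were lower, 6 higher and 2 not called (median -0.59). In other cells, where 33.8% of all genes were called higher and 33.0% lower, 10 were higher and 5 lower (median 0.25). Lgr5, the receptor that marks crypt base stem cells, had 6.35, 7.62, 7.82 and 10.1 CPM in colonic goblet cells. In small intestinal goblet cells it had 24.7, 27.4, 17.9 and 36.4 CPM (-1.75 ± 0.20). Olfm4 had 4 counts in all colonic libraries and 516 to 974 CPM in the small intestine (-13.50 ± 0.38, and -14.86 without colonic library 13). Of 30 proliferation genes, 18 were lower, 0 higher and 12 not called (median -0.64). Top2a was lower (-0.72 ± 0.17), and Mki67 was not called at 379, 432.5, 437 and 319 CPM against 474, 542, 377 and 433.5 CPM (-0.22 ± 0.16).

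Genes of antigen presentation and of the interferon response were lower in colonic goblet cells. Of 9 tested genes on the MHC class II list, 7 were lower, 1 higher and 1 not called (median -5.45). The higher member was Ctss, which is not itself a class II gene. In other cells, where 33.0% of all genes were called lower, 8 were lower and 1 higher (median -6.07). Cd74, the invariant chain, had 0.773, 1.17, 0.264 and 0.970 CPM in the colon against 482, 356, 353 and 429 CPM (-8.99 ± 0.28). H2-Ab1 had 3.13 to 4.07 CPM against 124 to 175 CPM (-5.42 ± 0.20). Of 33 interferon response genes, 30 were lower, 2 higher and 1 not called (median -2.92). In other cells 27 were lower and 2 higher (median -2.04). The goblet difference minus that in other cells was called above 0 for 4 and below 0 for 12. Among all genes, 14.1% were called above 0 and 18.2% below. Oas3, a sensor of double-stranded RNA, was at 0.994 to 1.94 CPM in colonic goblet cells against 58.2, 35.2, 120 and 75.1 CPM (-5.51 ± 0.48). The immunoproteasome subunit Psmb8 was at 6.55 to 10.3 CPM against 86.9 to 116 CPM (-3.66 ± 0.14). The chemokine Cxcl10 (4.07 ± 0.42) and Ifi27 (1.78 ± 0.16) were the 2 higher members, and Rsad2 was not called (0.30 ± 0.31). Families such as Oas, Ifit and Gbp have near copies that may share reads.

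Sensors of microbes and cytokines were mixed, with 13 of 35 higher, 18 lower and 4 not called (median -0.73). Tlr4, the receptor for lipopolysaccharide, was higher (2.56 ± 0.11), as was the DNA sensor Aim2 (1.77 ± 0.11). Nlrp6, an inflammasome sensor linked to mucus release, was lower at 35.5, 48.6, 39.4 and 40.5 CPM against 136 to 175 CPM (-1.98 ± 0.10), and so were Naip6 (-1.56 ± 0.15) and the interleukin 22 receptor Il22ra1 (-2.28 ± 0.18). Il13ra1, part of the receptor for interleukin 13, a signal that expands goblet cells, was higher in goblet cells at 347 to 410 CPM against 130 to 163 CPM (1.37 ± 0.08). It was lower in colonic other cells (-0.64 ± 0.08), and the effects differed by 2.01 ± 0.12 (adjusted p = 1.0e-10).

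**Figure D4:**
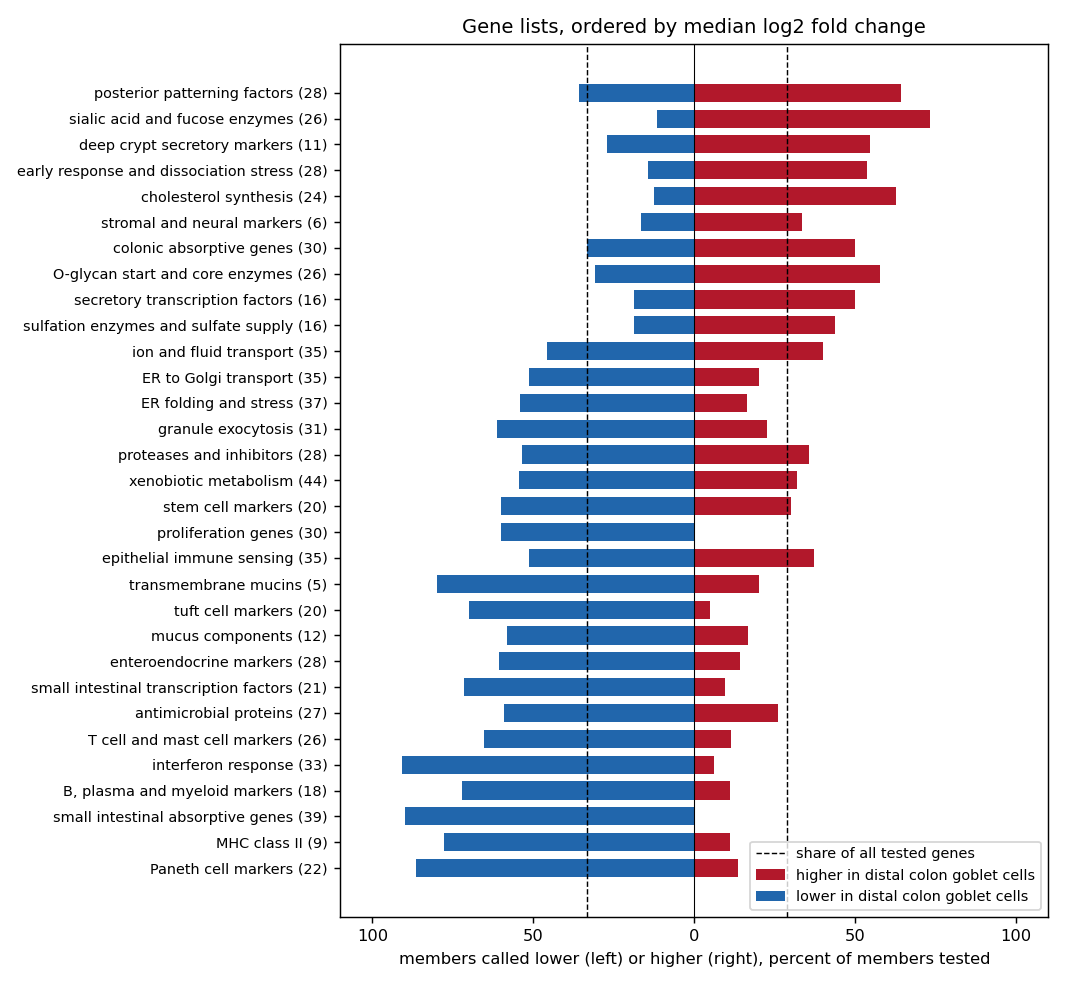
Percent of the tested members of each list called higher (red, right) or lower (blue, left) in colonic than in small intestinal goblet cells; dashed lines give the same shares among all tested genes, 28.9% and 33.4%. Posterior patterning and sialic acid and fucose enzymes have the larger shares higher, and interferon response, small intestinal absorptive and Paneth lists the larger shares lower.

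In 4 lists of markers of other cells more members were lower than higher in the colon, while the summed level went either way. Of 28 enteroendocrine markers, 17 were lower, 4 higher and 7 not called (median -1.54). The hormones secretin (Sct, -4.97 ± 0.29) and Gcg (-1.70 ± 0.17) were lower, and Insl5, a hormone of the distal gut, had 6.24 to 10.3 CPM in the colon and 4 counts in the small intestine (7.88 ± 0.37). The summed list was 1347 to 2004 CPM in the colon and 330 to 532 in the small intestine, but Reg4 alone was 1373 of it on average in the colon. Of 20 tuft cell markers, 14 were lower, 1 higher and 5 not called (median -1.03), with sums of 62.1 to 77.1 and 109 to 172 CPM.

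Of 26 T cell and mast cell markers, 17 were lower and 3 higher (median -2.67, or -2.31 with genes at 0 at their bound). The filter for enough counts covered all 16 libraries, so members of this list and the next could enter through other cells. Among those called lower, Xcl1 had 0 counts in colonic and 14 in small intestinal goblet libraries, and Klrd1 0 and 30. With the goblet libraries filtered and fitted alone, 8 were lower, and members with too few counts there dropped out. The summed list was higher in the colon, at 242 to 259 CPM against 96.1 to 105 CPM, and Kit alone made 233 CPM of it on average in the colon and 75.0 CPM in the small intestine. Of 18 B, plasma and myeloid markers, 13 were lower and 2 higher (median -4.04, or -3.67 with bounds). With the goblet libraries filtered and fitted alone, 6 were lower. Their sums were 33.9 to 36.8 CPM in the colon and 60.03 to 118 CPM in the small intestine. Gzma of cytotoxic cells and Igha of plasma cells had 0 counts in colonic goblet libraries and 862 and 834 counts in the small intestinal ones, at least 149-fold and 144-fold more. The T cell receptor and CD3 genes averaged under 1 CPM in both groups. The 3 higher T cell and mast cell markers were Kit, Hpgds and the chymase Cma1, which had 6.12 to 8.18 CPM in the colon against 2 counts. Of 6 tested stromal and neural markers, 2 were higher, 1 lower and 3 not called. Of 28 early response genes, which rise when tissue is dissociated, 15 were higher, 4 lower and 9 not called (median 0.51). Nr4a1 had 605, 510, 286 and 607 CPM in the colon against 29.7, 94.0, 68.5 and 63.4 CPM (2.97 ± 0.44), and Fos (0.71 ± 0.23) had overlapping groups. The part of other cells, or of the response to dissociation, in the differences above was not tested. Of 4 tested sex-linked genes, Ddx3y and Eif2s3y were higher and Kdm5d and Uty not called, and Xist had too few counts to be tested. Their sum was 293 to 346 CPM in colonic and 245 to 312 CPM in small intestinal goblet libraries.

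Metabolic lists were mixed. Of 24 genes of cholesterol synthesis and its control, 15 were higher in colonic goblet cells, 3 lower and 6 not called (median 0.47), whereas in other cells, where 33.8% of all genes were called higher and 33.0% lower, 3 were higher and 14 lower. The goblet difference minus that in other cells was called above 0 for 21 of 24 and below 0 for 1. Among all genes, 14.1% were called above 0 and 18.2% below. Fdps, which makes farnesyl diphosphate, had 16.7, 19.3, 21.98 and 15.8 CPM in colonic goblet cells against 7.27 to 10.2 CPM (1.10 ± 0.15). It was lower in colonic other cells (-0.81 ± 0.15), and the effects differed by 1.91 ± 0.21 (adjusted p = 7.9e-07). Insig1, the sterol sensor that restrains the pathway, was higher by 1.73 ± 0.13. Of 44 xenobiotic genes, 24 were lower, 14 higher and 6 not called (median -0.54). The alcohol dehydrogenase Adh1 had 486 to 578 CPM against 8.04 to 12.1 CPM (5.82 ± 0.15), Sult1a1 was higher by 7.51 ± 0.17, and Cyp4f14 was lower by -5.40 ± 0.17. Of 28 proteases and inhibitors, 15 were lower, 10 higher and 3 not called. The elastase Cela1 was at 116 to 121 CPM against 2.88 to 4.09 CPM (5.05 ± 0.11), and Serpina1b was lower (-8.94 ± 0.36).

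Most of the called genes were also called, in the same direction, in the epithelium around the goblet cells. Of the 4606 genes higher in colonic goblet cells, 3466 (75.2%) were also higher in colonic other cells and 233 (5.1%) were lower there. Of the 5324 lower genes, 3654 (68.6%) were lower in both and 339 (6.4%) higher in other cells. In other cells 33.8% of all tested genes were called higher in the colon and 33.0% lower. The goblet and other-cell comparisons share no library, but region and table go together in both. The difference of the region effects was called for 5149 genes (32.3%), 2247 above 0 and 2902 below. It was called for 1696 (36.8%) of the genes higher in colonic goblet cells and 1995 (37.5%) of those lower there.

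**Figure D5:**
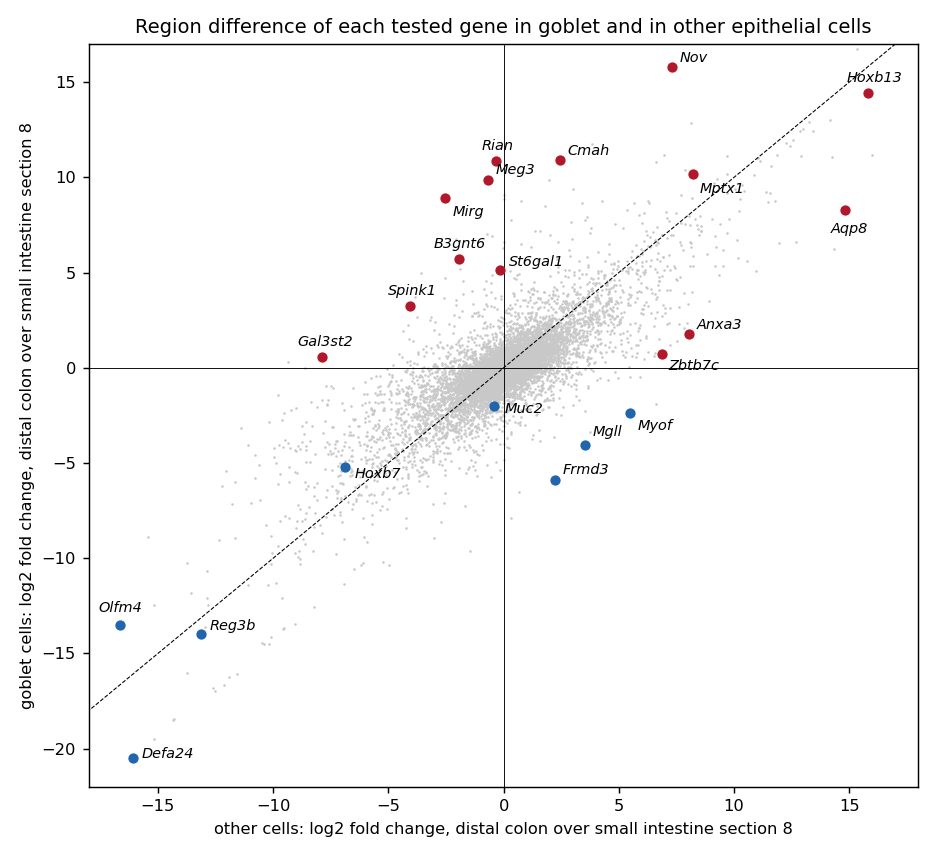
Log2 difference between distal colon and small intestine of each tested gene in other cells (x) and goblet cells (y), with named genes in red where higher and blue where lower in colonic goblet cells; the dashed line marks equal differences. Hoxb13 and Reg3b lie near the line, Rian, Meg3, Cmah, B3gnt6 and St6gal1 far above it and Myof, Mgll, Frmd3 and Aqp8 far below; values of genes with 0 to 3 counts in a group (such as Nov, Hoxb13 and Defa24) are fitted values that depend on the prior count.

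The largest differences beyond those of other cells, among the genes named by rule, were in non-coding RNAs of an imprinted locus on chromosome 12 and in a secreted protein. Rian had 182, 194, 196 and 206 CPM in colonic goblet cells against 0.0265 to 0.202 CPM in small intestinal ones. In other cells it was at 0.259 and 0.329 CPM, and the effects differed by 11.16 ± 0.51 (adjusted p = 4.7e-12). Meg3 had 101, 89.9, 106 and 103 CPM against 0.0548 to 0.144 CPM, with 0.256 and 0.419 CPM in other cells (10.56 ± 0.43). Mirg, from the same locus, had 14.4 to 18.4 CPM in the colon against 4 counts, and in other cells both groups were at or under 3 counts, so its value depends on the prior count of the fit. Among the 4 groups measured, colonic goblet cells were the ones in which all 3 were above 10 CPM. Nov, also called Ccn3, a matricellular protein, had 1535, 1237, 1617 and 1563 CPM in colonic goblet cells and 3 counts in small intestinal ones, a ratio of 68093 with a 95% counting interval of 23300 to 330194. In other cells the ratio was 193 (65.3 to 939).

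Differences in the opposite sense were led by Frmd3 and Myof. Myof, a ferlin of membrane repair, was lower in colonic goblet cells, at 25.5, 23.9, 22.5 and 25.7 CPM against 107, 114, 165 and 128 CPM (-2.40 ± 0.17). In other cells it was higher in the colon, with 94.5 CPM against 2.08 CPM (5.50 ± 0.20), and the effects differed by -7.90 ± 0.26 (adjusted p = 3.6e-13). Mgll, a lipase of monoglycerides, crossed in the same way, with -4.07 ± 0.21 in goblet cells and 3.55 ± 0.17 in other cells. The water channel Aqp8 was higher in the colon in both, at 16.6 to 26.3 CPM against 8 counts in goblet cells (8.29 ± 0.23) and by 14.81 ± 0.24 in other cells. Spink1, a trypsin inhibitor, showed the reverse crossing. It was higher in colonic goblet cells at 355, 291, 381 and 342 CPM against 30.2 to 43.6 CPM (3.26 ± 0.12) and lower in colonic other cells (-4.07 ± 0.13), with a difference of 7.32 ± 0.17 (adjusted p = 4.5e-16).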

How the data were processed

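Read counts per gene were deposited by the authors in a table for each region, with 46882 genes each. The build was mm10, and the tools listed are DESeq2 (1.14), HTSeq (0.6.1p1), STAR (2.4.0f) and FastQC (0.11.2), per the submitters' processing notes; their parameters and the strand setting are not given here. Libraries were stranded total RNA without ribosomal RNA, and goblet lysates went over MinElute columns and other lysates over Mini columns, per the labels' protocols. A deposited normalized table was not used.

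The tables were joined by gene symbol. 4 entries with a repeated symbol and 37 symbols starting with mt- were left out, and 25 symbols turned into dates are not named. Counts were fitted with edgeR 4.0.16 in R 4.3.3: TMM, filterByExpr by group, 1 fit over 4 groups and 16 libraries, robust quasi-likelihood F test, Benjamini-Hochberg adjustment, calls at 0.05. The script was tested on simulated data. CPM uses TMM-scaled totals, and SE is the absolute log2 difference over the square root of F. With 0 counts in a group of 4 libraries a floor of 3 counts gives a bound, and with 1 to 3 counts an exact 95% interval is given. Intervals and bounds cover counting error only.

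The comparison, the 32 gene lists and the rule for named genes were chosen with earlier results of these data known. The rule takes the largest differences of at least 10 CPM without overlap. It takes the largest differences of the region effect between goblet and other cells. Up to 5 members per list of at least 5 CPM are added, together with the most abundant member of the list. The 8 most abundant genes of each group complete it. Other genes are named as list members picked after their values were seen. Gene positions are from GENCODE M21 and promoters from RefSeq. Alternatives were other size factors, no filter, DESeq2 1.42.0, limma 3.58.1 (voom), the goblet libraries alone, mt- genes kept, each goblet library left out and, chosen after seeing the data, removal of 15 nuclear genes of mitochondrial sequence and a block of neighbouring library numbers.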

Additional observations from a re-analysis of the deposited data

Results flagged for a closer look

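In 3 of 48 groups of 4 libraries tested, 1 library lay apart from the other 3 by more than Dixon's 95% critical value. For continuous values chance gives about 1 in 20. They were Hoxb13 in small intestinal goblet library 2 (0.0274 CPM, 1 count against 0), Hoxa13 in small intestinal library 8 (0.0288 CPM, 1 count against 0) and Atp12a in colonic library 11, the lowest at 201 CPM. A lone count against 0 always exceeds the critical value, so the Hoxb13 and Hoxa13 flags were fixed in advance and the chance rate does not apply to them.

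The region difference in goblet cells differed from that in other cells for 32.3% of the 15962 tested genes by edgeR's test of the difference itself. The 6 highest and 6 lowest of the genes called in both this test and the goblet comparison, chosen by size, are given here. On the log2 scale, goblet minus other, the values above 0 were Mirg 11.46, Rian 11.16, Meg3 10.56, Nov 8.45, Cmah 8.42 and Gal3st2 8.42. Those below 0 were Frmd3 -8.11, Myof -7.90, Mgll -7.62, Aqp8 -6.52, Anxa3 -6.29 and Zbtb7c -6.12. The values of Mirg and Nov rest on groups with 3 or fewer counts and depend on the prior count.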

How the results depend on the processing

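Counts of called genes over all tested genes stayed within 1.5 times the reported ones under every alternative. Some counts within lists did not. Fitting the goblet libraries alone took T cell and mast cell markers called lower from 17 to 8, and B, plasma and myeloid markers from 13 to 6. The filter for enough counts also used only the goblet libraries in that fit. The 2 higher transcription factors of the small intestine became 0 or 1 in that fit and without any 1 goblet library other than colonic 13. The 1 higher member of the MHC class II list became 0 without colonic 13, colonic 18 or small intestinal 4. The 4 lower early response genes became 2 without small intestinal library 6. Of the sex-linked genes, 1 in place of 2 was higher without colonic 9, small intestinal 4 or small intestinal 8, and 1 in place of 0 lower without colonic 9, small intestinal 2 or small intestinal 4. Of the 9930 called genes, 90.8% to 98.8% kept their call and direction, and 0 were called in the opposite direction. The share of higher among called genes was 46.4%, and 45.8% to 51.1% over the alternatives. Leaving out 1 goblet library gave 4266 to 4719 higher and 4668 to 5168 lower genes. Named genes that changed sign were not called under any of these settings. Leaving out each library gave -0.131 to 0.046 for Agr2, -0.066 to 0.290 for Klf4 and -0.045 to 0.068 for Copa. Copa was also at 0.027 with the goblet libraries alone, 0.026 with TMM without the 10 most abundant genes, 0.015 with mt- genes kept and 0.033 without nuclear genes of mitochondrial sequence. The cause was not tested. The groups share no replicate numbers, and the labels pair no libraries. Each goblet library correlated best, in its deviations from the group mean, with the other-cell library numbered next to it in its region (r = 0.0722 to 0.393), a hint from the data and not from the design. A replicate block of neighbouring numbers, chosen after seeing the data, was added to the test of the difference of the region effects. With the block, 6983 genes were called in place of 5149, with 99.7% of the 5149 kept in the same direction. Such a block cannot test the comparison of goblet groups, which lies between blocks. Depth limits genes at 0 or a few counts, whose differences are given as bounds or ratios with intervals.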

Other observations

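Further genes without values in the report separated the goblet groups. B3galt2, a galactosyltransferase, had 84.2, 71.0, 73.4 and 86.8 CPM in colonic goblet cells and 4 counts in all small intestinal goblet libraries together (11.19 ± 0.30). Ctse, an aspartic protease, had 32.9 to 46.1 CPM against 0.795 to 1.58 CPM (5.36 ± 0.19), and the small heat shock protein Hspb1 had 4.77 to 5.92 CPM against 0.0796 to 0.411 CPM (4.42 ± 0.28). In each of the 3 genes every colonic library lay above every small intestinal one. Among all tested genes, 57.7% had goblet groups without overlap in either direction. All 3 genes were also called higher in colonic other cells, by 6.98 ± 0.38, 8.07 ± 0.23 and 3.05 ± 0.27.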
